A study of Mus musculus with 42 samples.

Results

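Imprinted genes are transcribed mainly from the copy inherited from the father (paternally expressed) or from the mother (maternally expressed). The 37 imprinted genes described here were given as a list of symbols, and each was followed by 1 probe set, the one with the highest mean log2 signal among those that the platform annotation assigns to that gene alone (the 430A chip first). Of the 37 genes, 36 had such a probe set, 20 of them paternally expressed, 15 maternally expressed and Gnas, which gives both kinds of transcript. H19, the noncoding RNA next to Igf2, has no value because its probe set is assigned to 2 genes. After a filter on low signal 27 genes were measured (15 paternally expressed, 11 maternally expressed and Gnas), 25 on 430A and 2 on 430B. The chips hold 45137 probe sets other than controls, of which 34925 passed the same filter.

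The samples were cultures of D3, a mouse embryonic stem cell line derived from a blastocyst, that were directed towards osteoblasts (bone-forming cells). RNA was taken on day 4, day 5, day 6, day 8, day 16, day 25 and day 30, with 3 samples a day. Each of the 21 RNAs was hybridised to 2 Affymetrix arrays, MOE430A (430A) and MOE430B (430B), so 42 arrays. Per the labels all cultures were kept in DMEM with vitamin D3, beta-glycerophosphate and ascorbic acid, and VD3 stands in the titles from day 6 on, so that naming and the day change together. No untreated or undirected cultures were analysed here. The labels leave the contaminating cell types undetermined, and they do not say whether the 3 samples of a day were separate cultures. The p-values therefore rest on sample-to-sample spread that may be technical. The arrays measured total transcript and cannot tell the parental copies apart, so nothing below measures imprinting itself.

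As background, imprinted genes lie in clusters, each governed by a control region that carries DNA methylation on one parental copy, and many of them act on growth before birth. Several paternally expressed genes, such as Igf2, Plagl1, Dlk1, Mest and Peg3, are strongly active in mesoderm and mesenchyme of the mouse embryo and decline after birth. Several maternally expressed genes, such as Cdkn1c, Grb10, Igf2r and Phlda2, restrain growth of the embryo or the placenta. In the mouse, Plagl1 is a zinc finger transcription factor known to act on a network of other imprinted genes that includes Igf2.

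All values are log2 of the deposited signal, and the 7 days were compared in limma with all 21 arrays of a chip, the p-values being adjusted over all probe sets tested on that chip. A gene is said to have risen, fallen or changed where its adjusted p was under 0.05. Array medians lay between 476.0 and 684.3 signal units on 430A and between 793.7 and 905.2 on 430B, and 0 arrays correlated better with other days than with their own. On 430A the day 4 and day 5 arrays carry one scan date, those of day 6, day 8 and day 16 a second, and those of day 25 and day 30 later ones. On 430A differences of day 6 and every later day from day 4 or day 5 cannot be told apart from the scan date. The same holds for those of day 25 and day 30 from day 6, day 8 or day 16. Day 5 against day 4, and day 6, day 8 and day 16 among each other, could be compared within a scan date on this chip. On 430B replicate 1 of day 5 carries the scan date of day 6, day 8 and day 16. That 1 array alone links those days to day 4 and the rest of day 5. The cultures changed in makeup over the same days. The summed signal of 8 pluripotency markers had a median of 74925 on day 4 (range 21738 to 125806), 6886 on day 8 and 3592 on day 30, and 5 of the 8 genes fell from day 4 to day 30. The sum of 8 mesenchyme and fibroblast markers went from a median of 5701 on day 4 (4008 to 18459) to 180945 on day 8 (151197 to 265402) and 102039 on day 30 (73541 to 112339). Of these 8 genes 7 rose by day 8 and 1 fell. The sum of 8 muscle markers had medians of 5314, 48888 and 5118 on these days, 4 of the 8 rising by day 8 and 4 falling from day 8 to day 30. Of 9 yolk sac and visceral endoderm markers 2 rose by day 8 and 5 by day 30, of 5 tested macrophage markers 3 and 3, and of 5 tested neural markers 1 fell by day 8 and 1 by day 30. Of 3 tested osteoblast markers 1 rose and 1 fell by day 8, and 1 rose by day 30. Over all probe sets on 430A 9.64% rose and 6.83% fell by day 8, and 14.2% and 13.9% by day 30. From day 8 to day 30 7.12% fell. In lists this short, counts of 1 or 2 genes cannot be told from these shares. Sparc, which other mesenchyme also makes, had day means from 12.33 on day 4 to 17.03 on day 30. Ibsp, bone sialoprotein, stayed between 6.93 and 7.99, close to the 20th percentile of all values on the chip (6.96). In bulk samples fewer cells of a type and less RNA per cell cannot be told apart, and the part of these shifts in the results below was not tested.

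Most of the measured imprinted genes changed over the course, and day 8 was the commonest day of the highest mean. By the F test over the 7 days 18 of the 27 genes changed (66.7%), against 36.2% of the probe sets tested on 430A and 9.73% on 430B. The genes were followed by their brightest probe sets, while the background shares here and below cover every tested probe set, dim ones included. The shares are therefore not matched for brightness. The gene list was also chosen with earlier results of these data known. Fewer paternally expressed genes passed with the second brightest probe sets, as given at the end. The 18 genes that changed were 12 of the 15 paternally expressed genes and 6 of the 11 maternally expressed ones, while Gnas did not pass. The highest day mean fell on day 8 in 17 of the 27 genes, 9 paternally expressed, 7 maternally expressed and Gnas, where 11.5% of all tested probe sets on 430A and 12.3% on 430B had it on that day. The lowest day mean fell on day 30 in 14 genes and on day 4 in 9, where day 30 was the lowest for 18.5% of all tested probe sets on either chip and day 4 for 22.2% on 430A and 15.9% on 430B. Sgce was the 1 gene whose day mean was highest on day 30.

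**Figure D1:**
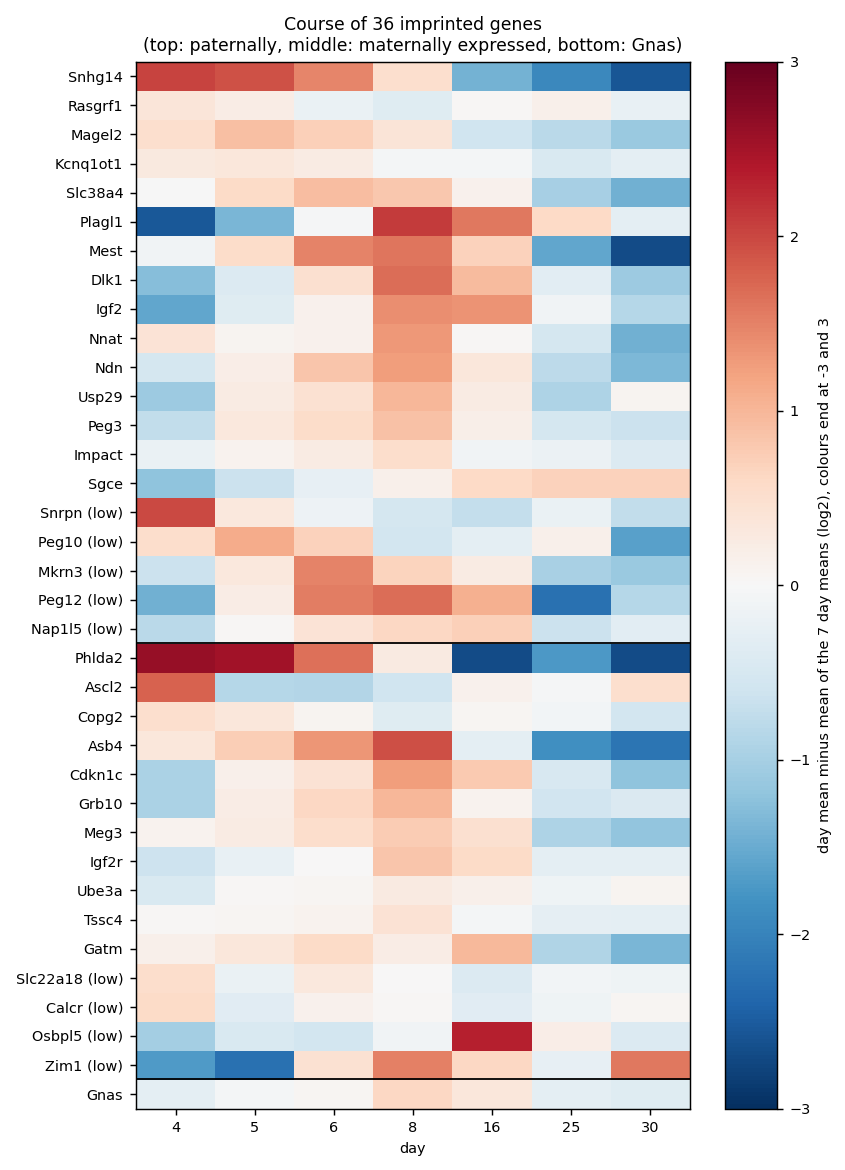
Day means of the 36 imprinted genes with a probe set, each minus its own mean over the 7 days (log2, colour scale cut at -3 and 3), with paternally expressed genes on top, maternally expressed genes in the middle and Gnas at the bottom; "low" marks the 9 genes too dim to be measured. The day 8 column is red or pale red for most genes, Phlda2 and Snhg14 run from red to blue, and Sgce runs from blue to red.

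Against day 4 the called differences turned from mostly higher to mostly lower. On day 5 0 of the 27 genes were called by limma (3 had an unadjusted p under 0.05), where 0.00599% of all probe sets on 430A and 0.00548% on 430B were called. On day 6 Ndn and Peg3 had risen and Ascl2 had fallen, 11.1% of the 27 genes (background 7.46% on 430A, 1.09% on 430B). Ndn was not called without replicate 1 or 2 of day 6 (1.23 and 1.27, adjusted p = 0.0832 and 0.0780), nor Peg3 without replicate 3 of day 4 (0.68, 0.140) or 3 other samples. On day 8 10 genes were higher and 4 lower, with backgrounds of 9.64% higher and 6.83% lower on 430A and 3.06% called on 430B. Of the paternally expressed genes 8 of 15, and of the maternally expressed genes 2 of 11, were among the higher ones. On day 16 5 were higher and 3 lower, all 5 higher ones paternally expressed (background 14.1% higher and 11.5% lower on 430A, 5.66% called on 430B). Over the 27 genes both day 16 counts are near the shares on 430A. On day 25 2 were higher and 9 lower (13.4% and 13% on 430A, 6.31% called on 430B). On day 30 1 was higher and 9 were lower (14.2% and 13.9% on 430A, 7.61% called on 430B). With any 1 of the 21 samples left out, 4 of the 14 calls of day 8 (Dlk1, Ndn, Peg3 and Plagl1), 4 of the 8 of day 16 (Phlda2, Plagl1, Sgce and Snhg14), 3 of the 11 of day 25 (Phlda2, Sgce and Snhg14) and 8 of the 10 of day 30 held in every case. These 6 comparisons share the day 4 arrays. The median difference from day 4 over the 15 paternally expressed genes was 1.36 on day 8 and -0.58 on day 30, and over the 11 maternally expressed genes it was 0.66 and -1.05, beside medians of 0.04 and -0.03 over all probe sets on 430A. Whether the kinds differ from each other was not tested.

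**Figure D2:**
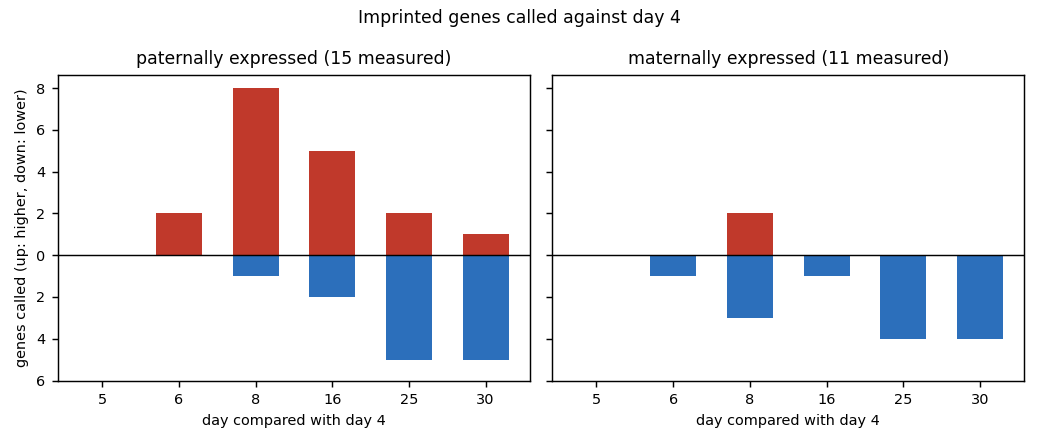
Number of imprinted genes called against day 4 on each later day (bars above 0 higher, bars below 0 lower; left, the 15 measured paternally expressed genes, right, the 11 measured maternally expressed genes). On day 8 the left panel has 8 higher and 1 lower and the right panel 2 higher and 3 lower, and on day 30 they have 1 higher and 5 lower, and 4 lower.

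From day 8 to day 30, a comparison added after the data were examined, 13 of the 27 genes fell and 0 rose (0 with an unadjusted p under 0.05 in that direction and 19 in the other). Over all probe sets 7.12% fell and 6.25% rose on 430A, and 3.06% were called on 430B. The 13 were 9 paternally expressed genes (Mest, Snhg14, Dlk1, Nnat, Ndn, Slc38a4, Magel2, Peg3 and Impact) and 4 maternally expressed ones (Asb4, Phlda2, Cdkn1c and Meg3). The median differences were -2.25 and -1.45 in the kinds, beside -0.06 over all probe sets on 430A. Of these 13 calls 10 held when any 1 sample was left out, the exceptions being Cdkn1c, Dlk1 and Phlda2. The log2 ratio of 3' to 5' signal of Gapdh, a sign of RNA or labelling quality, was 2.73 ± 0.47 on day 8 and 3.27 ± 0.19 on day 30 (SD, n = 3), and that of beta-actin 2.16 ± 0.22 and 2.49 ± 0.22. For Gapdh, day 25 had a ratio of 3.84 ± 0.38, beside 2.63 ± 0.37 for day 4 and 2.55 ± 0.15 for day 16. On day 25, as on day 30, 9 genes were lower than on day 4, and Mest fell from day 16 to day 25. The part of these ratios in the declines to day 25 and day 30 was not tested. Between neighbouring days few steps were called: Phlda2, Snhg14 and Nnat fell from day 8 to day 16 (3.07% of all probe sets called on 430A, 0.417% on 430B), and Mest fell from day 16 to day 25 (0.635% and 0.0822%). The other 4 steps had 0 calls by limma. They had 3, 0, 3 and 2 genes at an unadjusted p under 0.05 from day 4 to 5, 5 to 6, 6 to 8 and 25 to 30. On 430A 0.102% of all probe sets were called from day 5 to day 6, 0.114% from day 6 to day 8 and 0 from day 25 to day 30, and on 430B 0.011%, 0.0164% and 0. The 4 called steps each depended on single samples: Phlda2 stood at -2.36 (adjusted p = 0.199) without replicate 1 of day 16, Snhg14 at -1.76 (0.119) without the same sample, and Mest at -1.91 (0.220) without replicate 2 of day 25 and -2.84, still called, without replicate 1.

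**Figure D3:**
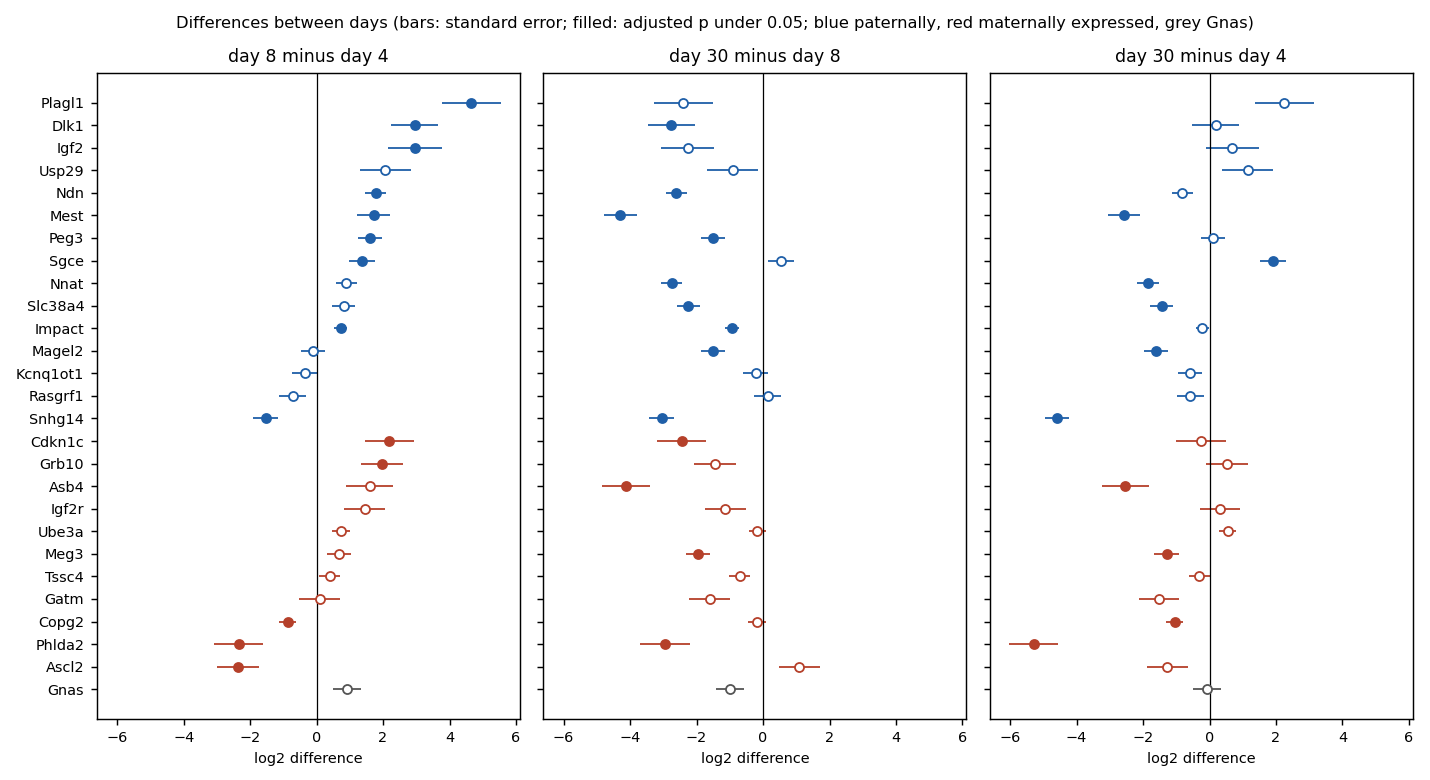
Log2 differences of the 27 measured imprinted genes for day 8 minus day 4 (left), day 30 minus day 8 (middle) and day 30 minus day 4 (right); points are differences of day means of 3 samples, bars are standard errors, and filled points have an adjusted p under 0.05. On the left most points lie right of 0, in the middle 24 of 27 lie left of it with Sgce, Ascl2 and Rasgrf1 on the other side, and on the right Plagl1 and Sgce lie farthest right and Phlda2 and Snhg14 farthest left.

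Among the regulators and growth factors, the paternally expressed Plagl1, Igf2 and Dlk1 shared the rise to day 8. Plagl1 read 13.17, 9.92 and 11.48 on day 4, 14.09, 12.22 and 11.78 on day 5 and 15.43, 15.44 and 11.24 on day 6 (log2 signal, replicates 1 to 3). It stood at 16.19, 16.40 and 15.95 on day 8, 15.85, 15.42 and 15.70 on day 16, 15.93, 13.79 and 14.30 on day 25 and 13.52, 13.56 and 14.27 on day 30. The day 4 and day 5 values were spread widely, replicate 3 of day 6 lay with the early samples, and all day 8 and day 16 values lay above all those of days 4 and 5. The difference of day 8 from day 4 was 4.65 (SE 0.88, limma adjusted p = 0.00148), a 25.2-fold higher level, and it was 5.48 without replicate 1 and 3.85 without replicate 2 of day 4, both still called. Day 16 stood 4.13 (SE 0.88, limma adjusted p = 0.00172) above day 4, and 4.95 or 3.32 without the same 2 samples. The 2.15 step from day 6 to day 8, which lies within a scan date, did not pass the test (limma adjusted p = 0.573), nor did the difference of -2.40 from day 8 to day 30 (adjusted p = 0.0780). The tested Plagl1 probe set on 430B rose as well from day 4 to day 8, by 1.98.

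Igf2 is the fetal insulin-like growth factor. Igf2 read 13.37, 13.33 and 10.93 on day 4, 15.08, 14.85 and 11.28 on day 5 and 15.13, 14.87 and 12.71 on day 6 (log2 signal, replicates 1 to 3). It stood at 15.98, 15.58 and 14.94 on day 8, 15.87, 15.34 and 15.09 on day 16, 14.98, 13.27 and 13.72 on day 25 and 13.23, 12.99 and 13.48 on day 30. Replicate 3, as numbered in the titles, was the lowest of its day on days 4, 5, 6, 8 and 16. The day 8 and day 16 values lay above all of day 4, and the day 30 samples lay between 12.99 and 13.48. Day 8 exceeded day 4 by 2.96 (SE 0.80, limma adjusted p = 0.0154) and day 16 by 2.89 (SE 0.80, limma adjusted p = 0.0110), folds of 7.76 and 7.40. Without replicate 3 of day 4 these differences were 2.15 and 2.08 and neither was called (adjusted p = 0.0890 and 0.0761). Without replicate 1 of day 8 the first was 2.71 and also not called (0.0713). The difference of day 30 from day 8, -2.27 (SE 0.80, limma adjusted p = 0.0669), was not called. The other Igf2 probe set on 430A, which was dimmer, rose by 2.06 from day 4 to day 8.

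Dlk1 encodes a membrane protein of the Notch ligand type that restrains fat cell formation. Dlk1 read 9.62, 9.73 and 8.68 on day 4, 11.12, 10.34 and 9.15 on day 5 and 11.87, 12.51 and 8.90 on day 6 (log2 signal, replicates 1 to 3). It stood at 13.09, 12.24 and 11.58 on day 8, 11.89, 11.73 and 11.06 on day 16, 11.61, 9.89 and 9.39 on day 25 and 9.72, 9.64 and 9.24 on day 30. Replicate 3 of day 6, at 8.90, lay among the day 4 samples and far below its companions (11.87 and 12.51), and the day 8 values did not overlap those of day 4 or day 30. Dlk1 rose by 2.96 (SE 0.71, limma adjusted p = 0.00700) from day 4 to day 8, a 7.78-fold change. Its level on day 30 was -2.77 from that of day 8 (adjusted p = 0.0116, 6.82-fold lower). The rise was called in every leave-out, while the decline was -2.37 and not called without replicate 1 of day 8 (adjusted p = 0.0632). The 430B probe set of Dlk1, far dimmer, differed by 0.06 from day 4 to day 8 and by -2.12 from day 8 to day 30, neither of them called.

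**Figure D4:**
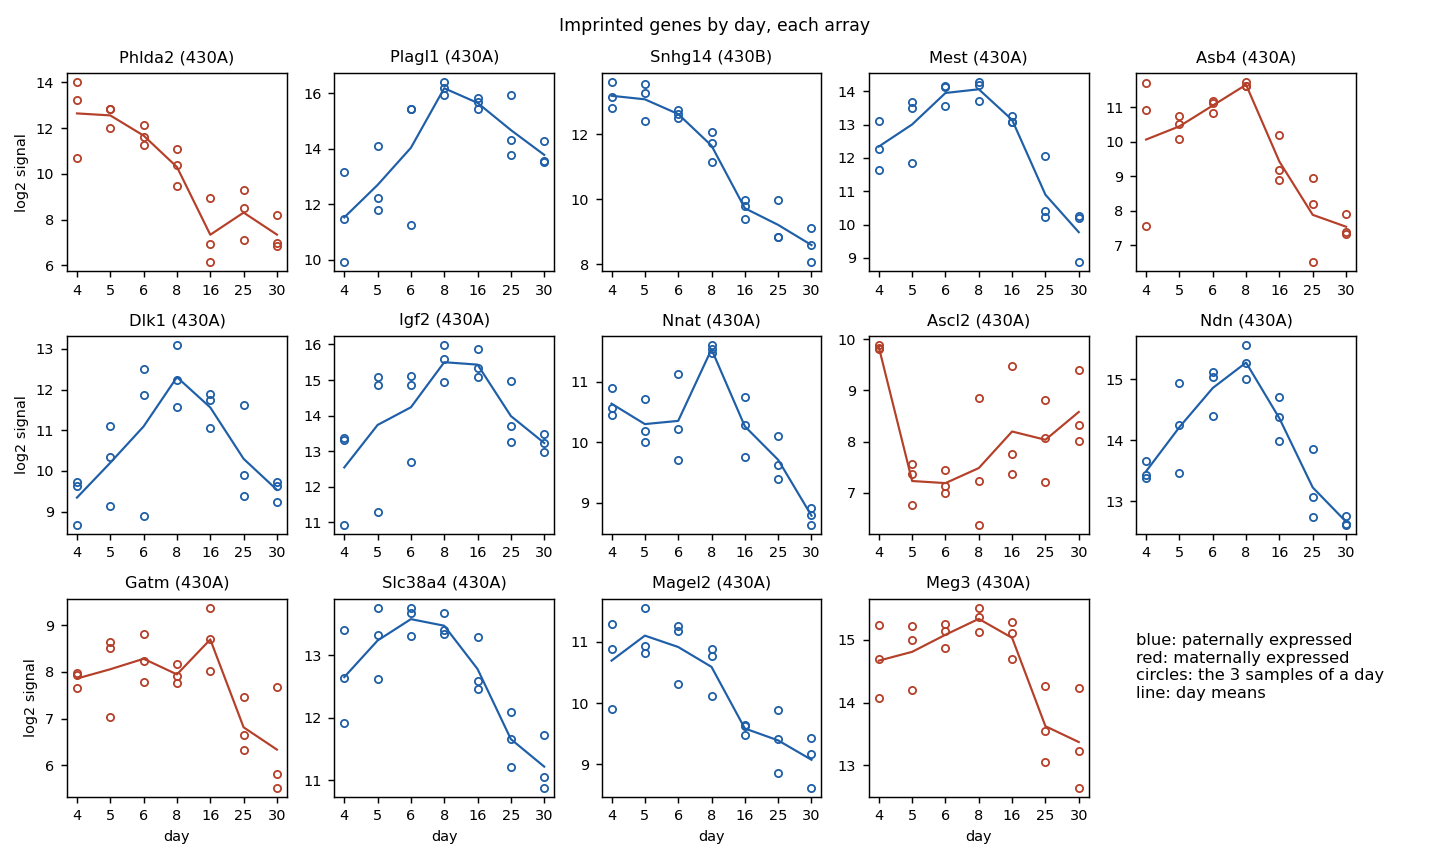
Log2 signal by day (axis with days evenly placed) of the 14 imprinted genes with the widest range of day means among those that changed; circles are the 3 samples of a day, lines join day means, blue is paternally and red maternally expressed, and each panel has its own scale. Plagl1, Mest, Dlk1, Igf2, Nnat, Ndn, Asb4 and Meg3 have their top on day 8, Phlda2 and Snhg14 run down from day 4, and Ascl2 drops after day 4.

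Mest, an enzyme of the alpha/beta hydrolase fold first found as a mesoderm transcript, combined an early rise with the steepest decline among the paternally expressed genes that peaked on day 8. Mest read 13.12, 12.26 and 11.65 on day 4, 13.69, 13.49 and 11.85 on day 5 and 14.17, 14.14 and 13.55 on day 6 (log2 signal, replicates 1 to 3). It stood at 13.71, 14.28 and 14.20 on day 8, 13.08, 13.26 and 13.09 on day 16, 12.07, 10.22 and 10.40 on day 25 and 10.25, 8.88 and 10.18 on day 30. Days 6 and 8 lay above all of day 4, and all 3 day 30 samples lay below every sample of days 4 to 16. It rose by 1.72 (SE 0.49, limma adjusted p = 0.0211) to day 8 and then changed by -4.29 (SE 0.49, limma adjusted p = 9.12e-06) to day 30, which left it 19.6-fold below day 8 and 5.96-fold below day 4. The difference of day 30 from day 4 was -2.57 (SE 0.49, limma adjusted p = 5.67e-04). Both declines were called in every leave-out. The rise was not called without replicate 2 or 3 of day 4 or replicate 2 or 3 of day 8, the differences then being 1.68, 1.37, 1.61 and 1.65 (adjusted p from 0.0592 to 0.0961).

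Peg3, a large zinc finger protein, was among the brightest of the imprinted genes. Its day means were 14.27 on day 4, 15.32 on day 5, 15.55 on day 6, 15.88 on day 8, 15.17 on day 16, 14.49 on day 25 and 14.37 on day 30. It rose from day 4 to day 8 by 1.61 (SE 0.36, limma adjusted p = 0.00448), or 1.00 without replicate 3 of day 4 (13.06), and fell from day 8 to day 30 by 1.51 (adjusted p = 0.00714), which left day 30 0.10 above day 4 (adjusted p = 0.879). The 3 other tested Peg3 probe sets were also higher on day 8 than on day 4, by 1.39, 4.33 and 1.56, and lower on day 30 than on day 8, by differences of -1.28, -5.71 and -0.30. Of these 3, the probe set with differences of 4.33 and -5.71 was called in both comparisons and the others in neither. Usp29, a ubiquitin protease transcribed in the opposite direction from the same start region, had day means of 7.36, 9.43 and 8.52 on days 4, 8 and 30 and did not pass the F test (adjusted p = 0.228).

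The promoter windows of Plagl1, Mest and Peg3 are shown because these 3 genes rose to day 8 and lie at or beside known imprinting control regions. Each line gives 300 bases of RefSeq sequence (GRCm38.p6), from 250 before the gene's start to 50 after, 5′ to 3′ on the gene's strand, for Plagl1 at chr10:13090582-13090881 (plus strand), Mest at chr6:30737800-30738099 (plus strand) and Peg3 at chr7:6730370-6730669 (minus strand). In the first and second, capitals mark the motif TGCCGC on either strand, the core of the site of ZFP57, a zinc finger protein that keeps methylation at imprinting control regions. In Peg3 they mark the 263 bases shared with the window of Usp29 (chr7:6730333-6730632, plus strand), from chr7:6730370 to chr7:6730632.
Plagl1: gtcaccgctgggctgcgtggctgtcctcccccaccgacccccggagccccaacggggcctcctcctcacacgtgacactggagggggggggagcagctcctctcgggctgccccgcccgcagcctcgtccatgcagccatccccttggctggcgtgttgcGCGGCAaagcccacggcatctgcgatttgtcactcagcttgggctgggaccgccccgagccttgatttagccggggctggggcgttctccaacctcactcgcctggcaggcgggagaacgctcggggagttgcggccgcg
Mest: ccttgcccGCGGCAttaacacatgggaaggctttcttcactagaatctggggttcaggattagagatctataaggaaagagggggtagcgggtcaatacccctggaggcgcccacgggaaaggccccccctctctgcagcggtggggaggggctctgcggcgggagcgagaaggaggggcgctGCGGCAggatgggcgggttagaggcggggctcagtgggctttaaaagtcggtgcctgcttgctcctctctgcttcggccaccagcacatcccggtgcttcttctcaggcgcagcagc
Peg3: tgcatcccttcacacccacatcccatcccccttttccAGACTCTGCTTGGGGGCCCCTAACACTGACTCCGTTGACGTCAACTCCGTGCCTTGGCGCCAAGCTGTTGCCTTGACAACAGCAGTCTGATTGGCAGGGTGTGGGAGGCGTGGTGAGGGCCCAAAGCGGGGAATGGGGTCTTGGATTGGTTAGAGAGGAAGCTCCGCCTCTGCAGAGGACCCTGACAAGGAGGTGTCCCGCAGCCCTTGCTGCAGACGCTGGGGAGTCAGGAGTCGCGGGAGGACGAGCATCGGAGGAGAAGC

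The Plagl1 window holds the motif at 1 place and 26 CpG dinucleotides, the Mest window 2 and 17, and the Peg3 window 0 and 13. RefSeq windows were matched for 32 of the 37 imprinted genes, 51 windows in all, since some genes have several starts. The motif was found, on either strand, in 13 of the 51 windows (25.5%) and in 12 of the 32 genes (37.5%), beside 11.6% of all 32851 mouse windows and 13.1% of 27025 genes. The median number of CpG dinucleotides was 14 beside 7. The motif itself holds a CpG, and these shares were not matched for CpG number or for the number of starts per gene. Among the genes that rose to day 8, Plagl1, Mest, Igf2 and Grb10 have the motif in at least 1 window. Dlk1, Ndn and Peg3 have none in theirs, and Sgce, Impact and Cdkn1c had no matched window. A match is a run of letters and not a measured site, and its absence says nothing of sequence outside the window.

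Ndn, Magel2 and Snhg14 lie in the domain on chromosome 7 that corresponds to the human Prader-Willi and Angelman region. Ndn encodes necdin, a growth-restraining member of the MAGE family. Ndn read 13.37, 13.66 and 13.43 on day 4, 14.94, 14.24 and 13.46 on day 5 and 15.12, 15.04 and 14.40 on day 6 (log2 signal, replicates 1 to 3). It stood at 15.56, 14.99 and 15.26 on day 8, 14.37, 14.71 and 13.99 on day 16, 13.86, 12.75 and 13.07 on day 25 and 12.61, 12.62 and 12.75 on day 30. Every day 8 sample lay above every sample of days 4 and 30, and the day 30 values, 12.61 to 12.75, were close together and below those of day 4. Ndn rose by 1.78 (SE 0.32, limma adjusted p = 8.82e-04) and then fell by 2.61 (SE 0.32, adjusted p = 1.46e-05), 3.44-fold up and 6.09-fold down, both called in every leave-out. Of its 7 tested probe sets, 5 were called in both comparisons with the same directions.

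Magel2, also of the MAGE family and a partner of ubiquitin ligases, was called higher than day 4 on none of the later days. Magel2 read 11.29, 9.91 and 10.89 on day 4, 10.82, 10.93 and 11.56 on day 5 and 11.26, 10.31 and 11.18 on day 6 (log2 signal, replicates 1 to 3). It stood at 10.12, 10.77 and 10.89 on day 8, 9.65, 9.63 and 9.48 on day 16, 9.89, 9.42 and 8.86 on day 25 and 9.43, 9.18 and 8.62 on day 30. The 3 samples of day 16 and the later ones all lay at 9.89 or below, under every sample of days 4 to 8, the lowest of which were 9.91 on day 4 and 10.12 on day 8. Day 30 differed from day 4 by -1.62 (SE 0.36, limma adjusted p = 0.00211) and from day 8 by -1.52 (SE 0.36, limma adjusted p = 0.00755), called in every leave-out. The decline from day 6 to day 16, within a scan date, was -1.33 (SE 0.36, limma adjusted p = 0.0212), and the call was lost without replicate 1 or 3 of day 6 or any sample of day 16 (differences -1.16, -1.20, -1.36, -1.35 and -1.28, adjusted p from 0.0542 to 0.0902).

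Snhg14, the long noncoding RNA that hosts the small nucleolar RNA clusters of this domain, was measured on 430B, and its day mean was lower on each day than on the one before. Snhg14 read 13.13, 12.80 and 13.59 on day 4, 13.54, 12.41 and 13.26 on day 5 and 12.62, 12.75 and 12.48 on day 6 (log2 signal, replicates 1 to 3). It stood at 11.15, 11.72 and 12.07 on day 8, 9.40, 9.99 and 9.78 on day 16, 8.83, 8.83 and 9.98 on day 25 and 8.59, 8.07 and 9.11 on day 30. All day 16, 25 and 30 values lay below all values of days 4 to 8. Day 30 differed from day 4 by -4.59 (SE 0.37, limma adjusted p = 5.31e-08), 24.0-fold lower, and from day 8 by -3.05 (SE 0.37, limma adjusted p = 4.93e-05), and both were called in every leave-out. Within a scan date it fell by 2.89 from day 6 to day 16 (SE 0.37, adjusted p = 7.47e-05), where 1.76% of all probe sets on 430B and 11.3% on 430A were called. Of the imprinted genes Snhg14, Phlda2 and Magel2 fell and 0 rose (1 higher at an unadjusted p under 0.05). These calls were 11.1% of the 27 genes, near the share on 430A. The -1.53 difference of day 8 from day 4 (adjusted p = 0.0215) was not called without replicate 3 of day 4 (-1.32, 0.102), replicate 1 of day 8 (-1.29, 0.132) or replicate 2 of day 8 (-1.57, 0.0564). With the scan date as a fixed term it was -2.23 and not called (adjusted p = 0.624), an estimate that rests on replicate 1 of day 5. The next brightest Snhg14 probe set fell by 3.18 from day 4 to day 30 and differed by -2.30 from day 8, the latter not called. Snrpn, a splicing protein gene of the same domain with which Snhg14 shares a RefSeq start window, did not pass the filter, its values lying between 5.20 and 9.66. Ube3a, a ubiquitin ligase that is maternally expressed in neurons, had day means between 10.00 and 10.73 and did not pass the F test (adjusted p = 0.282). Mkrn3 and Peg12 did not pass the filter.

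Nnat and Slc38a4 are further paternally expressed genes that ended below their starting level. Nnat encodes neuronatin, a small protein of the endoplasmic reticulum. Nnat read 10.56, 10.90 and 10.45 on day 4, 10.01, 10.18 and 10.71 on day 5 and 9.71, 11.12 and 10.22 on day 6 (log2 signal, replicates 1 to 3). It stood at 11.60, 11.46 and 11.53 on day 8, 9.76, 10.29 and 10.74 on day 16, 10.11, 9.62 and 9.39 on day 25 and 8.64, 8.80 and 8.92 on day 30. The day 8 samples, 11.46 to 11.60, lay above all other samples, and the day 30 samples lay below all others. Nnat fell by 2.75 from day 8 to day 30 (adjusted p = 9.76e-06) and stood -1.85 (SE 0.32, limma adjusted p = 2.04e-04) from day 4, both called in every leave-out. Within a scan date it differed by -1.27 (SE 0.32, limma adjusted p = 0.0303) between day 8 and day 16, a call lost without any 1 sample of day 8 or without replicate 1 or 2 of day 16 (differences -1.24, -1.31, -1.27, -1.02 and -1.29, adjusted p from 0.0761 to 0.200).

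Slc38a4 encodes an amino acid transporter active in placenta and liver. Slc38a4 read 13.40, 12.63 and 11.91 on day 4, 13.75, 13.33 and 12.62 on day 5 and 13.67, 13.76 and 13.30 on day 6 (log2 signal, replicates 1 to 3). It stood at 13.40, 13.34 and 13.68 on day 8, 12.46, 12.59 and 13.28 on day 16, 12.10, 11.21 and 11.66 on day 25 and 10.88, 11.05 and 11.72 on day 30. The day 30 samples lay below every sample of days 4 to 16. Day 30 differed from day 8 by -2.25 (SE 0.35, limma adjusted p = 1.89e-04) and from day 4 by -1.43 (SE 0.35, limma adjusted p = 0.00393), called in every leave-out. The second Slc38a4 probe set on 430A fell in both comparisons, with differences of -3.20 and -1.57.

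Sgce and Impact were the remaining paternally expressed genes that changed. Sgce, epsilon-sarcoglycan, a membrane protein of the dystrophin complex, had day means of 10.84, 11.39, 11.79, 12.20, 12.64, 12.74 and 12.75 from day 4 to day 30. It was the 1 imprinted gene called higher on day 30 than on day 4, by 1.91 (SE 0.39, limma adjusted p = 9.84e-04), and that call held in every leave-out. Its rise to day 8, 1.36 (SE 0.39, limma adjusted p = 0.0213), was not called without replicate 3 of day 4 (0.89, 0.127), replicate 1 of day 8 (1.41, 0.0563) or replicate 2 of day 8 (1.17, 0.0869). A second Sgce probe set, on 430B and dimmer, differed by -0.70 from day 4 to day 30, in the other direction, without being called. Impact, which restrains the GCN2 stress kinase, rose by 0.72 (SE 0.20, limma adjusted p = 0.0168) to day 8 and fell by 0.94 to day 30 (adjusted p = 0.00308). The rise of Impact was not called without replicate 2 of day 4 (0.65, adjusted p = 0.0542) or replicate 3 of day 8 (0.62, 0.0767). The 2 Impact probe sets on 430B differed by -0.71 and -1.34 over those days, neither of them called. Kcnq1ot1, the noncoding RNA that silences its neighbours, had day means from 11.38 to 12.19, Rasgrf1, a Ras exchange factor, from 8.53 to 9.25, and neither passed the F test (adjusted p = 0.552 and 0.650).

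Among the maternally expressed genes, Phlda2 and Ascl2, which act in the placenta, were highest at the start. Phlda2 encodes a small protein with a pleckstrin homology domain that restrains placental growth. Phlda2 read 13.23, 13.999 and 10.69 on day 4, 12.83, 12.81 and 12.02 on day 5 and 11.60, 11.26 and 12.14 on day 6 (log2 signal, replicates 1 to 3). It stood at 9.46, 10.37 and 11.06 on day 8, 6.15, 6.93 and 8.94 on day 16, 8.53, 9.28 and 7.12 on day 25 and 8.20, 6.86 and 6.97 on day 30. Replicate 3 of day 4, at 10.69, lay well below its companions (13.23 and 13.999), and all values from day 16 on lay below every earlier one. The level on day 30 was at least 38.3-fold lower than on day 4. The log2 difference was -5.29 (SE 0.74, limma adjusted p = 2.47e-05), and it was -4.61 without replicate 2 and -6.27 without replicate 3 of day 4, both called. Within a scan date Phlda2 differed by -4.33 (SE 0.74, limma adjusted p = 6.25e-04) between day 6 and day 16, at least 16.6-fold lower, or by -3.73 and -5.12 without replicate 1 or replicate 3 of day 16, both called. From day 8 to day 30 it fell at least 7.57-fold (adjusted p = 0.0104), a call lost without replicate 3 of day 8 (-2.57, 0.0588). By day 8 it had fallen by 2.34 from day 4 (adjusted p = 0.0352), the difference being -3.31 without replicate 3 of day 4. This call was lost without replicate 1 or 2 of either day (differences from -2.38 to -1.66, adjusted p from 0.0728 to 0.182). Where a day's value lay under the 20th percentile of the chip it was raised to it, so these folds are lower bounds.

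Ascl2 encodes a transcription factor needed for the trophoblast of the placenta. Ascl2 read 9.89, 9.84 and 9.81 on day 4, 6.77, 7.56 and 7.36 on day 5 and 7.00, 7.13 and 7.44 on day 6 (log2 signal, replicates 1 to 3). It stood at 8.85, 7.23 and 6.38 on day 8, 9.48, 7.76 and 7.36 on day 16, 8.07, 7.22 and 8.82 on day 25 and 8.01, 9.39 and 8.34 on day 30. The 3 day 4 samples, 9.81 to 9.89, lay above all 18 later ones, which ran from 6.38 to 9.48. Day 6 differed from day 4 by -2.66 (SE 0.62, limma adjusted p = 0.0156) and day 8 by -2.36 (SE 0.62, limma adjusted p = 0.0130), while day 30 differed by -1.27 (SE 0.62, limma adjusted p = 0.139) and was not called. The day 6 call was lost without replicate 2 of day 4 (-2.66, 0.0564), replicate 1 of day 6 (-2.56, 0.0741) or replicate 2 of day 6 (-2.63, 0.0688). The day 8 difference was -3.04 without replicate 1 of day 8 and -1.81 and not called (0.0747) without replicate 3. Beside these genes, the sum of 7 trophoblast markers had medians of 17779 on day 4 (6930 to 22089) and 17906 on day 5 (16256 to 21180). On day 8 the median was 9267 and on day 30 it was 3387 (3265 to 4660). Of the 6 tested, 2 fell from day 4 to day 30, where 13.9% of all probe sets on 430A fell. The median was thus no lower on day 5, when Ascl2 read 6.77 to 7.56. The lowest day 4 sum, 6930, was that of replicate 3, where Ascl2 read 9.81. The part of this sum in the Phlda2 and Ascl2 courses was not tested.

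Cdkn1c, Grb10 and Igf2r are maternally expressed genes that restrain growth of the embryo. Cdkn1c, an inhibitor of cyclin-dependent kinases, had day means of 11.02 ± 0.78 on day 4, 13.21 ± 0.49 on day 8 and 10.76 ± 0.41 on day 30 (SD, n = 3). Grb10, an adaptor that damps insulin and IGF receptor signalling, had 12.12 ± 1.34, 14.08 ± 0.51 and 12.64 ± 0.16 on the same days. Igf2r, the receptor that clears IGF2, had 11.44 ± 0.43, 12.88 ± 0.67 and 11.75 ± 0.12. All 3 had their highest day mean on day 8, as Igf2 did. The differences of Cdkn1c, 2.19 (SE 0.75, limma adjusted p = 0.0494), and of Grb10, 1.96 (SE 0.64, limma adjusted p = 0.0389), between day 4 and day 8 passed the test, and that of Igf2r, 1.45 (SE 0.61, limma adjusted p = 0.115), did not. Neither Cdkn1c nor Grb10 passed the F test over the 7 days (adjusted p = 0.0733 and 0.134). The Cdkn1c rise was not called in 16 of the 21 leave-outs (adjusted p from 0.0539 to 0.167; the difference was 1.78 without replicate 3 of day 4). That of Grb10 was 2.72 without replicate 1 of day 4, and was not called without replicate 2 or 3 of day 4 or replicate 1 or 2 of day 8 (1.74, 1.44, 1.73 and 1.93, adjusted p from 0.0895 to 0.173). The other tested Grb10 probe set, far dimmer, differed by 0.26 between these days without being called, and the second Igf2r probe set rose by 1.93. Cdkn1c fell by 2.45 from day 8 to day 30 (adjusted p = 0.0328), a call lost without replicate 1 or 2 of day 8 or any sample of day 30 (-2.38, -2.24, -2.23, -2.64 and -2.48, adjusted p from 0.0572 to 0.111).

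Meg3, the maternally expressed noncoding RNA of the domain that also holds Dlk1, was called lower on days 25 and 30 than on day 4. Meg3 read 14.70, 15.23 and 14.07 on day 4, 14.99, 15.22 and 14.21 on day 5 and 15.24, 15.13 and 14.86 on day 6 (log2 signal, replicates 1 to 3). It stood at 15.12, 15.37 and 15.50 on day 8, 14.69, 15.11 and 15.28 on day 16, 13.55, 13.05 and 14.27 on day 25 and 12.65, 13.24 and 14.23 on day 30. Days 4 to 16 lay between 14.07 and 15.50 and days 25 and 30 between 12.65 and 14.27, so the lowest early samples (14.07 and 14.21) overlap the highest late ones (14.23 and 14.27). Meg3 fell by 1.96 from day 8 to day 30 (adjusted p = 0.00111), called in every leave-out. Day 30 differed from day 4 by -1.29 (SE 0.37, limma adjusted p = 0.0115), not called without replicate 2 of day 4 (-1.01, 0.0658) or replicate 1 of day 30 (-0.93, 0.0850). All 11 Meg3 probe sets, on both chips, had a lower mean on day 30 than on day 8. Dlk1, paternally expressed from the same domain, differed by 2.96 between day 4 and day 8 where Meg3 differed by 0.66 (adjusted p = 0.240). The difference between the genes was not tested.

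Asb4, Gatm and Copg2 complete the maternally expressed genes that changed. Asb4 encodes a subunit of a ubiquitin ligase. Asb4 read 11.72, 10.93 and 7.56 on day 4, 10.51, 10.08 and 10.76 on day 5 and 11.17, 10.85 and 11.14 on day 6 (log2 signal, replicates 1 to 3). It stood at 11.63, 11.73 and 11.62 on day 8, 8.90, 10.19 and 9.19 on day 16, 8.94, 6.51 and 8.19 on day 25 and 7.38, 7.32 and 7.91 on day 30. Replicate 3 of day 4, at 7.56, lay among the late samples, the day 8 values lay close together, and all values from day 16 on lay below all of day 8. It fell by 4.13 from day 8 to day 30 (SE 0.71, adjusted p = 5.21e-04), 17.5-fold lower and called in every leave-out. The second Asb4 probe set fell by 4.29. The difference of day 30 from day 4 for the main probe set of Asb4 was -2.53 (SE 0.71, limma adjusted p = 0.0107). It was -3.79 without replicate 3 of day 4, and was not called without replicate 1 (-1.71, 0.0768) or replicate 2 (-2.10, 0.0571). The second probe set differed by -2.07 between these days and was not called (limma adjusted p = 0.213). Sgce, which was called higher on day 30 than on day 4, lies in the same domain on chromosome 6.

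Gatm catalyses the first step of creatine synthesis. Gatm read 7.66, 7.94 and 7.98 on day 4, 7.03, 8.63 and 8.51 on day 5 and 7.79, 8.24 and 8.81 on day 6 (log2 signal, replicates 1 to 3). It stood at 8.16, 7.77 and 7.91 on day 8, 9.37, 8.70 and 8.02 on day 16, 6.32, 7.46 and 6.66 on day 25 and 5.52, 7.68 and 5.81 on day 30. Its values were low throughout, highest on day 16 and lowest on day 30, and it passed the F test (adjusted p = 0.0340) but none of the comparisons of 2 days. Copg2, a subunit of the vesicle coat and neighbour of Mest, had day means from 9.76 on day 30 to 10.82 on day 4, and day 30 was lower than day 4 by a difference of -1.05 (SE 0.26, limma adjusted p = 0.00429). Its -0.87 on day 8 (adjusted p = 0.0254) was not called in 5 leave-outs (adjusted p from 0.0575 to 0.0756). Tssc4 had day means from 10.50 to 11.20 and Gnas, whose main product is the stimulatory G protein subunit, from 13.59 to 14.58, and neither passed the F test (adjusted p = 0.480 and 0.334). Zim1, Osbpl5, Slc22a18, Calcr, Peg10 and Nap1l5 joined Snrpn, Mkrn3 and Peg12 below the filter, although a dimmer Slc22a18 probe set passed it.

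The samples of one day were not alike in these genes, and the same samples were low for many of them. Of the 25 measured genes on 430A, 17 had their lowest day 4 value in replicate 3, 16 their lowest day 5 value and 16 their lowest day 6 value in the samples numbered 3. Of all tested probe sets 37.9%, 33.4% and 35.2% were lowest there. Replicate 3 was also the lowest of day 8 for 14 genes (37.4% of all probe sets) and of day 16 for 12 (33.8%), while on day 25 replicate 2 was the lowest for 13 (34.7%) and on day 30 replicate 1 for 14 (36%). Replicates are numbered here by the titles, and the array headers number replicate 3 of days 8 and 16 as 4. On day 6 Plagl1 read 11.24 in replicate 3 and 15.43 and 15.44 in the others, Igf2 12.71 beside 15.13 and 14.87, Igf2r 10.14 beside 13.33 and 12.72, and Cdkn1c 10.60 beside 13.94 and 12.68. The same sample had a mesenchyme marker sum of 13823 beside 61486 and 43284, a muscle marker sum of 6319 beside 93387 and 60831, and a pluripotency marker sum of 24025 beside 5124 and 9728. Likewise replicate 3 of day 4 had a pluripotency sum of 125806 beside 21738 and 74925 and a mesenchyme sum of 4008 beside 18459 and 5701. Replicate 3 of day 5 had 56482 beside 4230 and 15381, and 6471 beside 38590 and 18450. The imprinted genes and the markers were read from the same arrays, and the part of cell makeup in the low imprinted gene values was not tested. On day 25 18 of the 25 genes were highest in replicate 1, for which the share of all probe sets was not computed. This sample had a mesenchyme sum of 304995 beside 74951 and 145403. It also had the highest array median on 430A (684.3), and the part of either was not tested.

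Genes of DNA methylation and imprint maintenance were mostly called lower where they were called at all. Of a list of 17 genes of imprint maintenance and DNA methylation, 16 were tested. Of these 1 rose and 3 fell from day 4 to day 8, and 0 rose (limma, also 0 at an unadjusted p under 0.05) and 7 fell from day 4 to day 30. The shares of all probe sets on 430A were 9.64% higher and 6.83% lower by day 8, and 14.2% and 13.9% by day 30. On 430B 3.06% and 7.61% were called, and the counts of this list were not split by chip. Dnmt3b, the methyltransferase of early embryonic cells, differed by -3.67 (SE 0.43, limma adjusted p = 3.25e-06) on day 30, and Mbd3, a methyl-CpG binding domain protein, by -3.04 (SE 0.57, limma adjusted p = 4.57e-04). Dnmt3l, a methyltransferase cofactor, differed by -2.49 (SE 0.77, limma adjusted p = 0.0193), and Trim28, the corepressor that ZFP57 recruits, by -2.39 (SE 0.25, limma adjusted p = 9.84e-07). Dnmt3a was the gene that rose by day 8, by 1.50 (SE 0.35, limma adjusted p = 0.00645). Zfp57 itself did not pass the filter. Pluripotency markers fell over the same days, as given above, and the part of this was not tested.

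Of 29 further imprinted genes outside the 37, 18 were tested, and 4 rose by day 8 and 0 fell (limma; at an unadjusted p under 0.05, 7 and 0). These were Ddc, which makes dopamine and serotonin, at 2.67 (SE 0.39, limma adjusted p = 2.03e-04), the noncoding RNA Airn, antisense to Igf2r, at 1.63 (SE 0.45, limma adjusted p = 0.0170), Blcap at 0.85 (SE 0.27, limma adjusted p = 0.0383) and the tetraspanin Cd81 at 0.80 (SE 0.26, limma adjusted p = 0.0447). By day 30 3 were above day 4 (Ddc, Blcap and Cd81) and 2 below it (Zdbf2 and Mirg), and from day 8 to day 30 0 rose and 3 fell (Klf14, Zdbf2 and Mirg; at an unadjusted p under 0.05, 1 and 6). All probe sets on 430A gave 9.64% higher and 6.83% lower by day 8, 14.2% and 13.9% by day 30, and 6.25% and 7.12% from day 8 to day 30, so the counts by day 30 are near the background of that chip. On 430B 3.06%, 7.61% and 3.06% were called in these comparisons. The counts of this list were not split by chip. The median of the 18 was 0.26 on day 8 minus day 4 and -0.42 on day 30 minus day 8. Among 4 tested receptors of IGF2 and proteins that bind its mRNA, 0 were called by limma from day 4 to day 8 or from day 4 to day 30 (0 and 2 at an unadjusted p under 0.05), and Igf2bp3, an mRNA-binding protein, fell from day 8 to day 30, with a difference of -0.90 (SE 0.28, limma adjusted p = 0.0385).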

How the data were processed

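Per the labels, each of the 21 RNAs was hybridised to both chips, and the authors deposited 1 signal value per probe set and array, an intensity on a linear scale computed with MAS5 per the submitters' processing notes (version not given in the sources used here); the values scale to a trimmed mean of about 1500 on every array. Log2 of the deposited signal was taken with no offset. Probe sets above their array's 40th percentile on at least 3 arrays were kept. Each chip was fitted separately in limma 3.58.1 (R 4.3.3) with day as the factor over 21 arrays (14 residual degrees of freedom), eBayes with a trend, and Benjamini-Hochberg adjustment per chip and comparison, threshold 0.05. Values under the chip's 20th percentile (6.96 on 430A, 7.67 on 430B) were raised to it for folds, which are then lower bounds. All 64 control probe sets per chip were left out. Genes were named from the platform annotation, using probe sets with 1 symbol only. All listed genes are named, and the 14 with the widest range of day means among those called by the F test are given in full. The members and lists were chosen with earlier results of these data known. The fit was tested on simulated data. Arrays have no counting depth; their number limits the precision.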

Additional observations from a re-analysis of the deposited data

How the results depend on the processing

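Offsets, floors, a stricter or no filter, no trend, median or quantile scaling, scan date and replicate blocks, left-out samples and the second brightest probe set were tried; the day 30 minus day 8 comparison and the block by header number were chosen after seeing the data; the array headers number replicate 3 of days 8 and 16 as 4, where the titles have 3. Of 66 called values of single genes, all 66 kept direction and call with an offset of 100, the floor, the stricter filter and the replicate block. All 66 also did with the scan date as a random block, but its estimated correlation was -0.026 on 430A and 0.034 on 430B, so that fit adjusted almost nothing and says little of the scan date. As a fixed term the scan date could be fitted for 8 of the values, of which 7 kept their call and 1 lost it (Snhg14 on day 8 minus day 4, -2.23). Those of day 16 minus day 6 and day 16 minus day 8 compare days within a scan date, so this fit could not test them for it. The values that crossed scan dates were those of Snhg14 on day 8 and day 16 minus day 4, of which the first lost its call. Both rest on 1 array, replicate 1 of day 5 on 430B, the only link between the scan dates compared. Calls were lost, with the direction kept, for 13 of the 66 without the trend, 5 without the filter, 4 with the header number block, and 2 each with median and quantile scaling. A second tested probe set existed for 38 of the values; with it 16 kept their call, 18 lost it and 4 reversed: Dlk1 on day 16 minus day 4 (-1.06), Sgce on day 30 minus day 4 (-0.70) and day 8 minus day 4 (-0.22), and Impact on day 8 minus day 4 (-0.71); 7 paternally expressed genes then passed the F test, 2 were higher on day 16 and 0 on day 30 than on day 4. The number higher on day 30 than on day 4 was 2 without the filter, with the replicate block, with the scan date as a random block and with the header number block. Without the filter 1 gene was higher on day 16 than on day 6, and with the header number block 2 were lower on day 8 than on day 4. The cause was not tested. Leaving out 1 sample at a time, the F test called 6997 to 8044 of all probe sets, 15 to 20 imprinted genes, 11 to 12 paternally and 4 to 8 maternally expressed. Day 8 minus day 4 gave 5 to 14 higher and 1 to 4 lower; day 16 minus day 4 2 to 6 and 2 to 4; day 30 minus day 4 1 to 2 and 7 to 10 (all probe sets 4936 to 6279); day 30 minus day 8 11 to 15 lower; day 16 minus day 6 0 to 0 higher and 2 to 4 lower (all probe sets 1056 to 2714). The calls summed over later days against day 4 ran from 32 to 53, those over successive steps from 0 to 5. Whether the replicate numbers pair the samples is not known from the labels, and the main fit did not use them. Deviations of samples with the same number correlated over 0.1 in 16 of 63 pairs on 430A and 1 of 63 on 430B. Yet 19 of 21 and 18 of 21 samples lay on average nearer their own number, a hint from the data and not the design. With the replicate block the F test called 20 imprinted genes, and all 66 called values kept direction and call.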
